A study of Mus musculus with 6 samples.

Results

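The motor proteins of the cytoskeleton and the adaptors that hold their cargo were described in the proximal incisor mesenchyme of *Arid1b* mutant mice. The members were the genes of the authors' table whose symbols name an unconventional myosin (*Myo* with a number), a kinesin (*Kif* or *Kifc* with a number), a kinesin light chain (*Klc*), a subunit of cytoplasmic dynein (*Dync*) or an adaptor of the Hook and Bicaudal D families (*Hook*, *Bicd*). There were 77 such genes among 19270, namely 40 kinesins, 21 myosins, 7 dynein subunits, 5 adaptors and 4 kinesin light chains. Bulk RNA-seq had been made from 3 control and 3 mutant mice that received tamoxifen at 1 month of age and were sampled 4 days after induction. The mutants were of the genotype *Gli1-CreER;Arid1b* fl/fl, and tamoxifen turns on Cre in cells that express *Gli1*, a Hedgehog-responsive gene of incisor mesenchymal stem cells that also marks cells of the epithelial lineage. The control samples are labelled wild type, whereas the methods give tamoxifen-injected *Arid1b* fl/fl mice. The values used here are 1 mean per gene and group, without a value per mouse or an SD. The authors' own p-value and FDR were not used, so no test stands behind a difference given here. The words "higher" and "lower" describe the 2 means only.

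Kinesins walk along microtubules, most of them towards the plus end, and cytoplasmic dynein walks towards the minus end. Unconventional myosins move along actin or tether membranes to it. A group of kinesins works on the mitotic spindle and is made mainly by dividing cells, whereas the transport motors carry vesicles, mitochondria and ciliary components in cells that do not divide as well. In the continuously growing incisor, slowly cycling mesenchymal stem cells feed a pool of rapidly dividing transit amplifying cells, which in turn give rise to odontoblasts and pulp.

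The mitotic kinesins shared letters in their promoters that the choice of members did not use. The RefSeq promoter table (GRCm38.p6) runs from 250 bases before to 50 bases after each start and held 71 promoters of 60 of the 77 genes. A promoter with TTTGAA or TTCGAA on either strand, the letters of the cell cycle homology region (CHR) of genes expressed in G2 and mitosis, was found for 10 of 11 mitotic kinesins of an extended list (90.9%), for 1 of 20 promoters of transport motors (5%) and for 19.2% of all 32851 promoters. The letters CCAAT, a box often found beside the CHR, stood on either strand in 63.6%, 40.0% and 37.4% of these promoters, and both elements together in 7 of 11, 0 of 20 and 7.52%. Members other than the mitotic kinesins had 60 promoters, of which 8 (13.3%) held CHR letters. Both elements stood in 4 of the 60 (6.67%), those of *Kif24*, *Kif27*, *Kif26b* and *Kifc5b*. *Kif26b*, with a lower mean in mutants (log2 ratio -0.41), held ATTGG at -73 and TTTGAA at -9. E2F letters (TTTCCCGC or TTTGGCGC) were in 2 of the 11 promoters, those of *Kif15* and *Kif18a*, and in 1.56% of all promoters. None of these letter sets contains another. Each promoter is a stretch of 300 bases, and a match describes letters, not a bound site. The 4 mitotic kinesins of the rule that had a promoter used here all held the CHR letters, and their sequences are shown with those of *Hook1*, *Myo16* and *Myo19*, 3 members whose means differed by over 1.5-fold, as 120 bases before to 30 bases after the start with CHR and CCAAT letters in capitals. The positions are chr19:37376262-37376411 on the plus strand (*Kif11*), chr9:61946770-61946919 on the minus strand (*Kif23*), chrX:100625945-100626094 on the plus strand (*Kif4*), chr4:117178743-117178892 on the minus strand (*Kif2c*), chr4:95967259-95967408 on the plus strand (*Hook1*), chr8:10153791-10153940 on the plus strand (*Myo16*) and chr11:84880050-84880199 on the plus strand (*Myo19*).
Kif11: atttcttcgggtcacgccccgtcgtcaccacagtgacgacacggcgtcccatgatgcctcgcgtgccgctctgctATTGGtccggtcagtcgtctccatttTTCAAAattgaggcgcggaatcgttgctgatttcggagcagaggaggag
Kif23: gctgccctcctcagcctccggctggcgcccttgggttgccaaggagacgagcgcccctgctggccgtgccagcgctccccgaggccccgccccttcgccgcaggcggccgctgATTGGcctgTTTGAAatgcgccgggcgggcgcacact
Kif4: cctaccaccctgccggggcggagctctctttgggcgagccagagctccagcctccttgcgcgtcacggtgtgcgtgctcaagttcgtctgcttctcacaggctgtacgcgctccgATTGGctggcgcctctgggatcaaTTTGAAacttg
Kif2c: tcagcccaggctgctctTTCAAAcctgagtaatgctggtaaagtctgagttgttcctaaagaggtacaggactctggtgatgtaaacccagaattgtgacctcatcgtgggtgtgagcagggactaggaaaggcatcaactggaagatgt
Hook1: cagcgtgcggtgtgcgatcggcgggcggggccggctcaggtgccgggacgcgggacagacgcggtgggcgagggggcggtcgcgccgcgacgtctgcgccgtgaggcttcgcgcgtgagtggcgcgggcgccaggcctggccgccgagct
Myo16: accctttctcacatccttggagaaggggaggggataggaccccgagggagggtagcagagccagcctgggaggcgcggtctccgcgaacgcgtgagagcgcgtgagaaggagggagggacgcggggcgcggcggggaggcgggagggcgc
Myo19: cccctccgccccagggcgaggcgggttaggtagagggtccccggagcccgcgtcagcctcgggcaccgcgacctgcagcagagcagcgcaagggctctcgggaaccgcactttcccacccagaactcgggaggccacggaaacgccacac
In *Kif11* the ATTGG that reads as CCAAT on the other strand lay at position -45 and the CHR letters TTCAAA at -19 from the start. *Kif23* held ATTGG at -7 and TTTGAA at 3, and *Kif4* ATTGG at -5 and TTTGAA at 20. The *Kif2c* entry starts 3867 bases inside the GENCODE gene and held TTCAAA at -103 without CCAAT. No such letters stood in the windows shown for *Hook1*, *Myo16* and *Myo19*, although the full *Myo16* promoter held TTTGAA at -133 and that of *Hook1* held CCAAT letters at -246 and -220.

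The samples differed in more than the deleted gene. *Arid1b* had group means of 97.6 in controls and 38.0 in mutants (log2 ratio of mutant over control -1.36), in the direction of the labels. All group means are a normalized signal of the authors, read here as reads plus 1 times a factor per library, and under that reading the libraries held 37123643 to 49594469 reads. Of 12 listed dental epithelium genes, 11 passed the filter on low values (a mean of both group means of at least 1), all 11 with higher means in mutants by over 1.5-fold, and *Cldn4* did not pass. Their median log2 ratio was 1.22 (lowest 0.78), and the ratios were led by *Enam* (3.87), *Amelx* (3.45) and *Ambn* (2.44). The summed means of all 12 were 10329 in mutants and 1607 in controls. Most of each sum came from these enamel matrix genes. In mutants and controls, *Amelx* had 3946 and 361.9, *Ambn* 3360 and 617.4, and *Enam* 1983 and 135.8. Of 10 listed dental mesenchyme genes, 8 had lower means in mutants (median log2 ratio -0.29), with *Gli1* itself at 106.4 in controls and 46.1 in mutants, and the 6 endothelial genes had a median of 0.03. The Y-linked *Ddx3y* had a mean of 65.3 in mutants and the lowest value of the table in controls, and *Xist* had 813.8 and 3368. Sex and genotype of the groups therefore cannot be told apart. In whole tissue, fewer cells of a type and less RNA per cell cannot be told apart either. The *Gli1-CreER* driver is part of the mutant genotype and of neither control genotype given. Its part in the *Gli1* values was not tested.

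Of the 77 members, 70 passed the filter. Their median log2 ratio of mutant over control was 0.05, beside 0.005 over all 14744 genes that passed, and 44 of 70 had a higher mean in mutants, beside 51.4% of all genes. A fold over 1.5 in either direction was reached by 6 members (8.57%), beside 6.05% of all genes. Of these, 3 had higher means (4.29%, beside 4.14%) and 3 had lower means (4.29%, beside 1.91%). How the share in either direction stood to that of all genes depended on the filter and the pseudocount. It was 10.4% beside 13.2% without a filter, 10.9% beside 3.06% with a mean of at least 10, and 8.57% beside 4.06% with a pseudocount of 1. With a narrower limit, means more than 25% apart (larger over smaller), 15 members were higher in mutants (21.4%, beside 9.1% of all genes) and 6 were lower (8.57%, beside 7.12%). Of the 15, 10 were among 12 mitotic kinesins of the extended list. Of the other 58 members, 5 were higher by this limit (8.62%) and 6 lower (10.3%), and 32 had a higher mean by any amount. The members past 1.5-fold were *Myo5b*, *Myo16* and *Hook1* on the lower side and *Myo19*, *Kif2c* and *Kif20a* on the higher side. The genes nearest to the threshold were *Kif20a* (log2 ratio 0.63) and *Kif2c* (0.67) inside it, and *Kif21a* (-0.53), *Myo1f* (0.53), *Kif23* (0.51) and *Myo5c* (0.50) outside it.

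**Figure D1:**
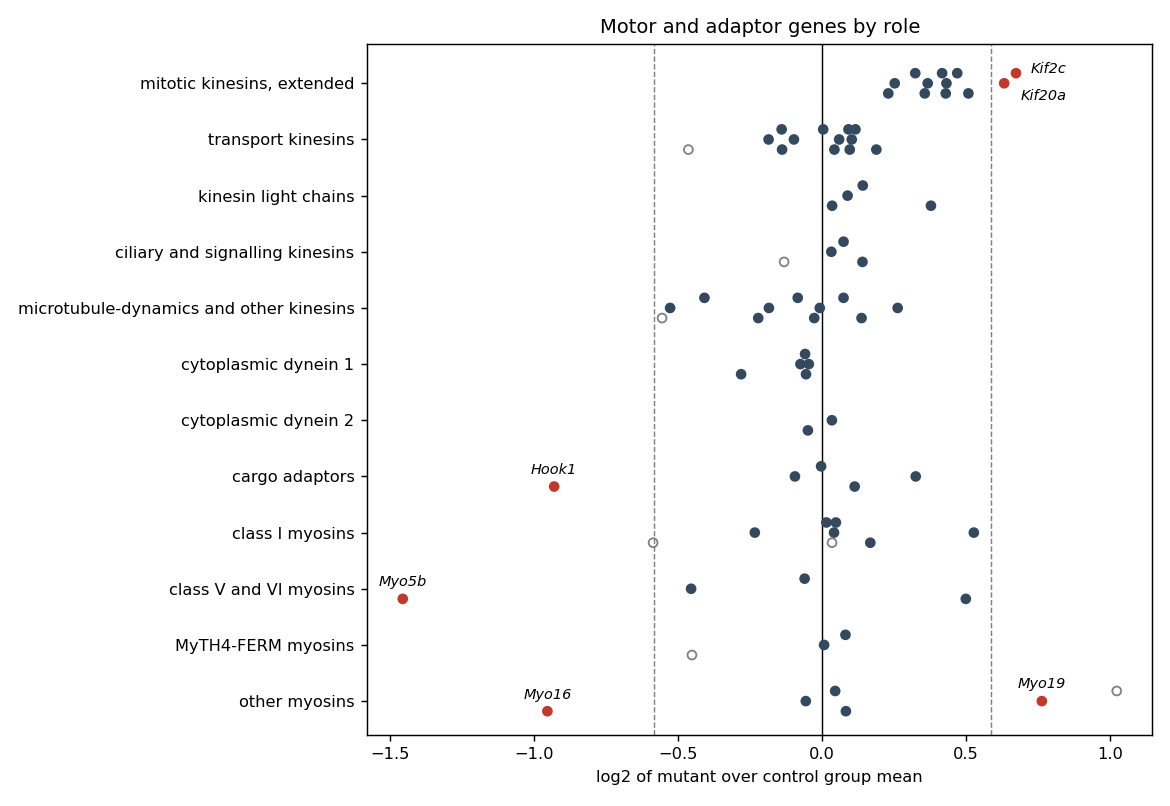
Each point is 1 of the 77 motor or adaptor genes, placed by role (vertical axis) and by the log2 of its mutant over its control group mean (horizontal axis). Open circles are the 7 genes below the filter, dashed lines mark a fold of 1.5 and red points are the 6 genes past it; the row of mitotic kinesins lies wholly to the right of 0.

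**Figure D2:**
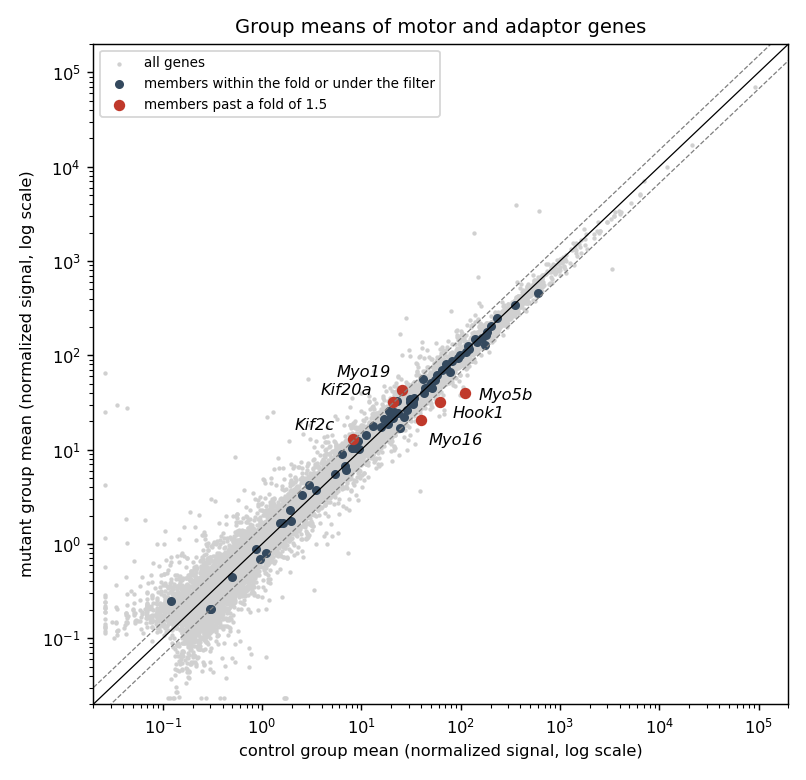
Control (horizontal) and mutant (vertical) group means in normalized signal, on log axes, with all 19270 genes in grey and the 77 motor and adaptor genes in dark blue or, past a fold of 1.5, in red. The solid line marks equal means and the dashed lines a fold of 1.5; most members lie between the dashed lines, with *Myo5b* the farthest below.

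All listed kinesins of the mitotic spindle had higher means in mutants. *Kif2a*, the paralog of *Kif2c*, was placed in another list and did not (log2 ratio -0.03). *Kif11*, the motor that pushes spindle poles apart, had means of 41.4 in controls and 55.9 in mutants (log2 ratio 0.43). *Kif23*, the kinesin of the centralspindlin complex that bundles midzone microtubules, had 23.0 and 32.7 (0.51). *Kif20a*, which brings the chromosomal passenger complex to the midzone, had 20.6 and 31.9 (0.63). These 3 and the other two kinesins of the rule lay on the same side. *Kif2c*, which takes microtubules apart at kinetochores, had 8.16 in controls and 13.0 in mutants (log2 ratio 0.67). *Kif4*, a chromokinesin of the midzone and the X-linked one of these genes, had 17.0 and 21.2 (0.32). The median log2 ratio of the 5 kinesins was 0.51, and their summed means were 110.2 in controls and 154.8 in mutants.

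The extended list added 7 kinesins with roles in spindle assembly, chromosome movement or cytokinesis, and all 12 had higher means in mutants (median log2 ratio 0.42, range 0.23 to 0.67). Of these 12, 10 were higher in mutants by more than 25% (83.3%, beside 9.1% of all genes higher by this limit). By over 1.5-fold, 2 of the 12 were higher (16.7%, beside 4.14% of all genes). A higher mean by any amount was held by 51.4% of all genes. The chromokinesin *Kif22* had means of 13.0 in controls and 18 in mutants (0.47), *Kif14*, which acts in cytokinesis, 9.17 and 12.3 (0.43), and *Kif20b* of the midbody 19.0 and 25.4 (0.42). *Kif18b*, which limits astral microtubules, had 8.09 and 10.4 (0.37). The minus-end motor *Kifc1*, which clusters spindle poles, had 11 and 14.1 (0.36), and 47.6% of the 50-base stretches of its transcript also occur in other genes, mostly in *Kifc5b* (3.52 and 3.71, log2 ratio 0.07), so reads could be split between the 2 genes. *Kif15*, a partner of *Kif11* in keeping the spindle bipolar, and *Kif18a*, which aligns chromosomes, stayed within 25%, with log2 ratios of 0.25 and 0.23.

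Outside the motor families, all 16 listed proliferation genes had higher means in mutants, beside 51.4% of all genes. Their median log2 ratio was 0.44 (range 0.25 to 0.71), with summed means of 691.2 in controls and 920.7 in mutants. The binding partners of 2 kinesins were among the 16 genes. *Racgap1*, which forms centralspindlin with *Kif23*, had 34.6 and 47.5 (0.46), and *Prc1*, which recruits *Kif4* to the midzone, 37.8 and 53.3 (0.50). The largest ratios were those of *Ccnb2* (0.71), *Cenpf* (0.65) and *Ccnb1* (0.63), and *Mki67* had the smallest (0.25). CHR letters stood in 86.7% of the 15 promoters of this list. Whether a larger share of dividing cells, of mesenchyme or of epithelium, goes with the kinesins was not tested. *Kif20a* shares 29.3% of its exon bases with *Cdc23* on the opposite strand (92.8 and 93.9, log2 ratio 0.02), and *Kif4* 15.1% with *Pdzd11* (37.5 and 34.1, -0.14). Both partners differed less than the kinesins or in the other direction, and strand use in counting is not given in the sources used here.

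**Figure D3:**
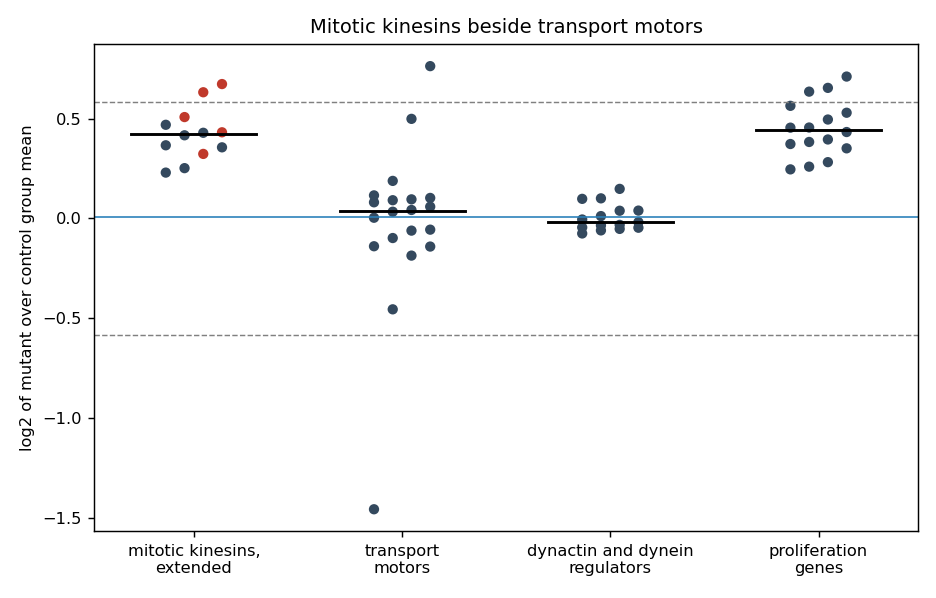
Log2 of mutant over control group mean (vertical axis) for the genes past the filter in 4 lists, each point 1 gene and each black bar the list's median; red points are the 5 mitotic kinesins that the rule names, the blue line is the median of all genes and the dashed lines mark a fold of 1.5. The 12 mitotic kinesins (median 0.42) and 16 proliferation genes (0.44) all lie above 0, while transport motors (0.04) and dynactin genes (-0.02) are centred near it.

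The transport motors lay nearer to equal means. Of 21 listed, 20 passed the filter, 12 with higher and 8 with lower means in mutants, and their median log2 ratio was 0.04, whereas their mean had the other sign (-0.03), with *Myo5b* far below the others. The 12 transport kinesins that passed stayed within a narrow band from -0.19 (*Kif13b*) to 0.19 (*Kif5c*). None had means more than 25% apart, beside 16.2% of all genes. The highest mitotic member of the rule's list and the lowest, at 0.67 and 0.32, thus both lay above every transport kinesin. They did not lie above every transport motor. *Myo19* (0.76) lay above all of the rule's mitotic kinesins, and *Myo5c* (0.50) above *Kif11* and *Kif4*. No test was run of the difference between the lists, since genes are not replicates.

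The conventional kinesin heavy chains, which carry mitochondria and vesicles together with the light chains, had close means in both groups. *Kif5b*, the ubiquitous form, had 229.9 in controls and 249.0 in mutants (log2 ratio 0.12). The forms best known from neurons, *Kif5a* (23.4 and 24.4) and *Kif5c* (19.9 and 22.6), had ratios of 0.06 and 0.19. The light chains *Klc1* (71.7 and 73.4), *Klc2* (20.6 and 21.9) and *Klc4* (15.8 and 17.4) had ratios of 0.03, 0.09 and 0.14, and *Klc3* was the only one with means more than 25% apart (2.54 and 3.30, log2 ratio 0.38). *Klc3* shares 28.1% of its exon bases with *Ercc2* on the opposite strand (15.3 and 16.8, 0.14).

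The kinesin-3 motors of vesicles and endosomes lay on both sides of 0. *Kif1b* had 180.0 in controls and 163.2 in mutants (-0.14), *Kif1c* 138.9 and 149.1 (0.10), and *Kif1a*, a carrier of synaptic vesicle precursors, 9.48 and 10.1 (0.09). The endosomal motors *Kif13a* (57.9 and 61.9), *Kif13b* (51.5 and 45.3) and *Kif16b* (46.3 and 46.4) had ratios of 0.10, -0.19 and 0.003. The kinesin-2 subunits, which drive transport into the cilium, were as close, with *Kif3a* at 43.0 and 40.2 (-0.10), *Kif3b* at 43.5 and 44.8 (0.04) and *Kif3c* at 28.9 and 26.3 (-0.14). The remaining kinesin-2 gene, *Kif17*, was below the filter at 0.944 and 0.684. *Kif3c* overlaps an antisense gene over 35.3% of its exon bases.

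Cytoplasmic dynein 1, the main minus-end motor, had slightly lower means in mutants for all 5 listed subunits (median log2 ratio -0.06). A lower mean was held by 7171 of all 14744 genes that passed. The heavy chain *Dync1h1* had 355.3 in controls and 341.7 in mutants (-0.06), and the intermediate chain *Dync1i2* had 182.6 and 176.8 (-0.05). The light intermediate chains *Dync1li1* (48.3 and 46.3) and *Dync1li2* (162.3 and 154.0) had ratios of -0.06 and -0.08. *Dync1i1*, an intermediate chain known mainly from neurons, had the largest difference of the complex, at 27.1 and 22.3 (-0.28). The dynein 2 genes of retrograde ciliary transport lay near 0, with *Dync2h1* at 49.7 and 50.8 (0.03) and *Dync2li1* at 33.3 and 32.2 (-0.05). Around the motor, all 15 listed genes of dynactin, its capping proteins and the dynein regulators stayed within 25%, with log2 ratios from -0.08 to 0.15. The 6 dynein light chain genes that passed had a median of -0.03, and 0 had means more than 25% apart. Beside both of these lists, 16.2% of all genes had means more than 25% apart.

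Among the adaptors that couple dynein to cargo, *Hook1* stood apart. *Hook1* (chromosome 4, 95967240 to 96025413), which links endosomes to microtubules and is known from sperm head shaping, had means of 61.3 in controls and 32.2 in mutants (log2 ratio -0.93, 1.91-fold lower). Its paralogs did not have lower means of that size, with *Hook3*, an adaptor at the Golgi, at 203.7 and 203.2 (-0.004) and *Hook2*, an adaptor at the centrosome, at 8.27 and 10.4 (0.32). *Bicd1* had 32.9 and 30.8 (-0.09), and *Bicd2*, the adaptor of Rab6 vesicles, 64.3 and 69.5 (0.11). An opposite-strand transcript, *9530080O11Rik*, covers 3.81% of the *Hook1* exon bases and had far fewer reads (0.472 and 0.128). The 5 listed Hook partners of the FTS and FHIP complex had a median of 0.08, and *Fam160a1* was the only one with means more than 25% apart (4.10 and 5.13, 0.32). Of 11 other dynein adaptors, 9 passed and had a median of -0.06. *Hap1* (1.82 and 3.05, 0.74) was past 1.5-fold, and *Spdl1*, the kinetochore adaptor of dynein in mitosis, had means more than 25% apart (5.54 and 7.77, 0.49).

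The myosins held the widest differences. *Myo5b* (chromosome 18, 74440936 to 74771493), the motor of Rab11 recycling endosomes, had 109.3 in controls and 39.8 in mutants (log2 ratio -1.46, 2.74-fold lower), the only member above the filter past a fold of 2. Its paralog *Myo5a*, which carries melanosomes and other vesicles, had 112.6 and 107.9 (-0.06), and *Myo5c*, a form of glandular epithelia, had 2.98 and 4.21 (0.50). *Myo6*, the minus-end myosin of endocytosis, had 177.2 and 129.3 (-0.46). Thus 3 of the 4 class V and VI genes had lower means in mutants, beside 7171 of all 14744 genes that passed. Only *Myo5b* among them was past 1.5-fold. The Rab11 machinery that binds *Myo5b* had a median of -0.002 over 8 genes, and *Rab25*, an epithelial member of that group, was past 1.5-fold in the other direction (1.33 and 2.27, 0.77). The 12 listed epithelial markers had higher means in mutants (median log2 ratio 1.22 over the 11 that passed), whereas *Myo5b* and *Hook1* had lower ones. The part of the epithelial share in the values of *Myo5b* and *Hook1* was not tested.

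*Myo16* (chromosome 8, 10153911 to 10634742), a myosin with ankyrin repeats studied mostly in neurons, had 39.9 in controls and 20.6 in mutants (log2 ratio -0.95, 1.94-fold lower). Of 6 listed genes of Schwann cells and nerve, 4 passed the filter with a median of 0.17, and the summed means of all 6 were 31.6 in controls and 34.8 in mutants. *Myo19* (chromosome 11, 84880148 to 84911226) lay on the other side, at 25.5 and 43.2 (0.76, 1.70-fold higher). It anchors mitochondria to actin through the Miro proteins and helps to share them out in cell division. The Miro genes and their adaptors, *Rhot1*, *Rhot2*, *Trak1* and *Trak2*, had a median of -0.04. None had means more than 25% apart, beside 16.2% of all genes. *Myo19* shares 1.49% of its exon bases with *Pigw* on the opposite strand, which had 6.41 and 8.92 (0.48), and 3.89% with *Znhit3* (-0.01). *Myo16* and *Myo19* were listed with other myosins outside the classes named here. Of these, *Myo9a* (121.8 and 117.1, -0.06), *Myo9b* (81.3 and 86.1, 0.08) and the Golgi myosin *Myo18a* (97.8 and 100.8, 0.04) were close to equal. *Myo18b* of that list was below the filter.

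The class I myosins, single-headed motors that tether membranes to actin, had a median log2 ratio of 0.04 over the 6 that passed. *Myo1c* had 93.4 in controls and 94.3 in mutants (0.01), *Myo1d* 33.9 and 35.1 (0.05) and *Myo1e* 78.9 and 67.1 (-0.23). *Myo1f*, a myosin of leukocytes, had 6.31 and 9.08 (0.53), whereas *Myo1g*, also made by leukocytes, had 1.63 and 1.68 (0.04). All 7 listed leukocyte genes had higher means in mutants, beside 51.4% of all genes (median 0.22, summed means 290.9 in controls and 324.7 in mutants). The part of leukocytes in the value of *Myo1f* was not tested. The filopodial *Myo10* (118.3 and 125.1, 0.08) and the stereocilia myosin *Myo7a* (18.7 and 18.8, 0.01) did not stand out.

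Kinesins with signalling, ciliary or microtubule-length roles included the member with the highest level per kb of exon in controls (40.9). This was *Kif26b*, a kinesin without motor activity that acts in non-canonical Wnt signalling, with means of 601.4 in controls and 452.9 in mutants (log2 ratio -0.41). Its paralog *Kif26a* had 145.9 and 137.5 (-0.09). *Kif21a*, which restrains microtubule growth at the cell cortex, had 24.7 and 17.1 (-0.53), while *Kif21b* had 6.77 and 6.73 (-0.01). *Kif7*, the Hedgehog regulator at the cilium tip, had 30.5 and 32.1 (0.07). *Kif24* and *Kif27* had ratios of 0.03 and 0.14. The depolymerase *Kif2a* (55.1 and 54.1, -0.03) stayed near 0, and it shares 19.2% of its exon bases with *Dimt1* on the opposite strand. Among low kinesins, *Kifc2* (7.07 and 6.06), *Kif6* (1.97 and 1.74) and *Kif9* (1.93 and 2.31) had ratios of -0.22, -0.19 and 0.26.

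Within paralog families, the shares differed between groups for Hook and class V myosins and little for the transport kinesins. Per kb of exon, *Hook1* made up 44.4% of the summed Hook means in controls and 28.4% in mutants, *Hook3* 43.1% and 52.4%, and *Hook2* 12.5% and 19.1%. Exon length counts all annotated exons of a gene, 28486 bases for *Hook3* and 8318 for *Hook1*. Their longest transcripts have 12836 and 5517 bases, so the order of paralogs within a family depends on this choice of length. *Myo5b* made up 58.6% of the class V sum in controls and 34.6% in mutants, and *Myo5a* 39.8% and 61.8%. The class V sum in mutants was 0.618 of that in controls and the Hook sum 0.819. These lower sums restate the values of *Myo5b* (11.2 per kb in controls and 4.08 in mutants) and *Hook1* (7.37 and 3.87). *Myo5a* (7.61 and 7.29) and *Hook3* (7.15 and 7.13) had close levels, so their larger shares follow from the smaller sums. *Kif5b* made up 82.4% of the Kif5 sum in both groups, *Kif1c* 62.9% and 66.4% of the Kif1 sum, *Kif3a* 50.8% and 49.4% of the Kif3 sum, and *Klc1* 58.4% and 56.6% of the light chains. *Kif21a* made up 87.3% and 82.7% of its pair, and *Kif26b* 66.0% and 60.8%.

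**Figure D4:**
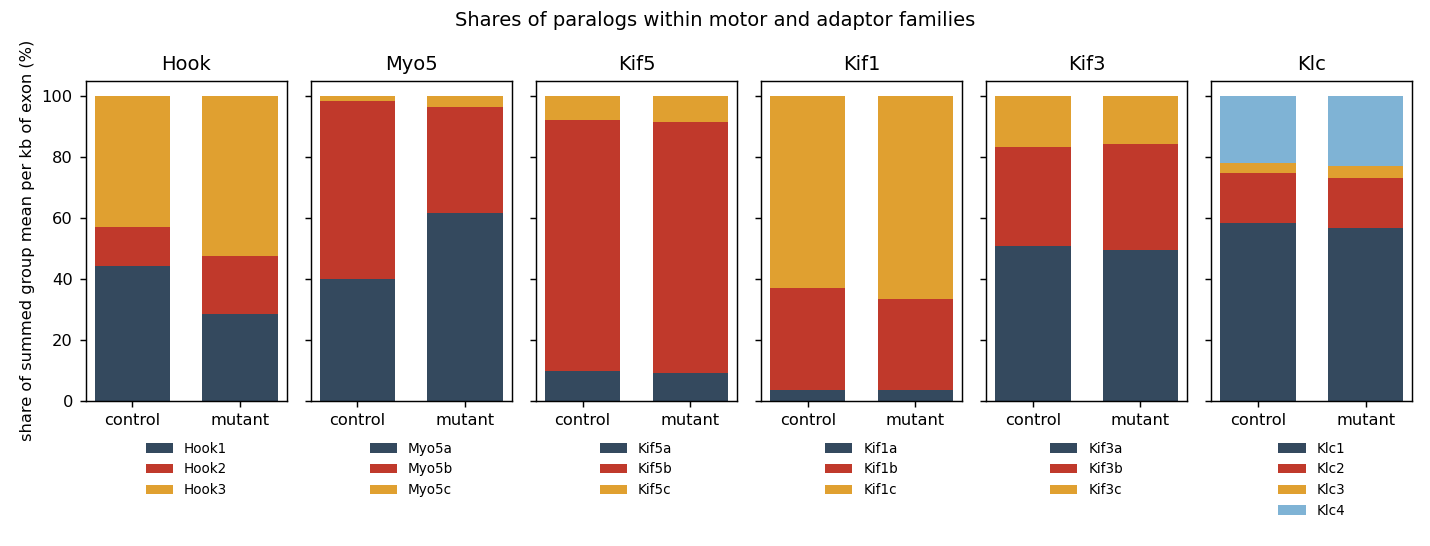
Stacked bars give each paralog's share (vertical axis, percent) of the summed group means per kb of exon of its family, in controls and mutants. The *Hook1* share goes from 44.4% to 28.4% and the *Myo5b* share from 58.6% to 34.6%, whereas the Kif5, Kif1, Kif3 and light chain families have similar shares in both groups.

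The 7 members below the filter were *Kif17*, *Kif19a*, *Kif28*, *Myo15*, *Myo18b*, *Myo1a* and *Myo1h*. All 77 members lay above the level of 3 reads per library in both groups (0.103 in controls and 0.0923 in mutants). *Myo18b*, a myosin of striated muscle, had 0.121 and 0.245, and *Myo1a*, of intestinal brush borders, 0.303 and 0.202, both past 1.5-fold on few reads (3.67 and 10.7 estimated per control library). Of 7 listed skeletal muscle genes, 3 passed the filter, and the summed means of all 7 were 7.69 in controls and 6.70 in mutants. Members that passed the filter had at least 57.9 estimated reads per library. Listed family members absent from the table used here were *Myo3a*, *Myo3b*, *Myo7b*, *Myo15b*, *Kif2b*, *Kif12* and *Kif25*.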

How the data were processed

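Bulk RNA-seq of 6 samples (3 control, 3 mutant) was used through 2 tables. Per the methods, reads were trimmed, mapped to mm10 and analysed in Partek Flow by the authors. The submitters' processing notes name TopHat2 2.0.8. The counting of reads, the annotation and the strand setting are not given in the sources used here. The authors deposited a group mean of normalized signal per gene, which is the only measurement used, and a summary of each library. The table's p-value, step-up FDR, ratio and signed fold change are the authors' own comparison and were not used, nor was the filtered table of changed genes. In the library summary, 4 numeric columns were not used. The reading of the signal as reads plus 1 times a factor per library was inferred from the minima, means and upper quartiles, so estimated reads carry that assumption, and a floor of 3 reads per library covers counting error only.

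The log2 ratio of the mutant over the control mean was computed with a pseudocount of 0. A gene was past the fold when this ratio exceeded 1.5 in either direction and the mean of both group means was at least 1. Planned was limma on values per library, which the group means do not allow, so no test was run and p-values are absent. On simulated group means with planted 2-fold differences, the steps recovered them. The limit of 1.5 fixed this outcome in advance, so it checked the code only. It says nothing about the spread between mice or about any difference given here.

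The members and gene lists were chosen with earlier results of these data known, and lists of Rab11, Miro and sex-linked genes were added after the values were seen. Named were all listed mitotic, transport, light chain, dynein and adaptor genes, every member past the fold, the 3 with the highest means per family, those nearest the fold, *Arid1b* and up to 3 genes of each marker list. The choice of other genes given by name came after their values had been seen. Exon lengths, overlaps, coordinates (1-based, GRCm38, the assembly also called mm10) and shared 50-base stretches came from GENCODE vM21, and promoters from RefSeq (GRCm38.p6). Python 3.11.15 was used with numpy 2.4.6, pandas 2.3.3 and matplotlib 3.10.9. Alternatives covered the filter, fold, pseudocount, centring and list definitions. Some genes covered by these rules are not reported here.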

Additional observations from a re-analysis of the deposited data

How the results depend on the processing

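The count of members past the fold followed the threshold. With means more than 25% apart there were 21 members (15 with higher and 6 with lower means in mutants), beside 16.2% of all genes, and at a fold of 2 there was 1 (0 higher and 1 lower, *Myo5b*), beside 1.99% of all genes. The wider and narrower thresholds themselves give these counts. Without the filter 8 members were past a fold of 1.5 (10.4% of members, beside 13.2% of all genes). There were 6 with a mean of at least 10 (10.9%, beside 3.06%), with a pseudocount of 1 (8.57%, beside 4.06%) and with centring on the median of all genes (8.57%, beside 6.05%), so the share of members lay below or above that of all genes depending on the setting. The median log2 ratio of the mitotic kinesins lay between 0.42 and 0.51 under the alternatives run for it. That of the transport motors lay between 0.02 and 0.05, and their mean was -0.03. Leaving out *Kif20a* and *Kif4*, or the motors past the fold, was added after seeing the data. Each takes 1 gene from above and 1 from below the median, which therefore could not move. No paired analysis was possible because the tables used hold 1 mean per gene and group, and leaving out each replicate was not run for the same reason. Without values per mouse, no difference could be set against the spread between mice. Members past the filter had at least 57.9 estimated reads per library.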
